A study of Homo sapiens with 4 samples.

Results

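The CCR4-NOT complex is the main cytoplasmic enzyme that removes poly(A) tails from mRNA. The genes described here are 10 of its subunits, CNOT1, CNOT2, CNOT3, CNOT4, CNOT6, CNOT6L, CNOT7, CNOT8, CNOT10 and CNOT11, which were chosen by gene symbol from the 28283 genes of the expression table, with the condition that each is also named in both lists of m6A peaks. In cells with an shRNA against YTHDF2, the RNA of the scaffold CNOT1 and of the deadenylases CNOT6 and CNOT7 was lower than in control cells, the RNA of CNOT11 was higher, and the other 6 subunits differed less. The subunits had 34 of the 31057 m6A peaks listed for control cells and 19 of the 27344 listed for cells with the shRNA. At an FDR of at most 0.001 they had 10 and 8, a limit at which all peaks were not counted. Genes kept by their FPKM with a peak in both lists had on average 2.92 and 2.56 peaks, and the subunits had 3.40 and 1.90.

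A549, an established line of human lung adenocarcinoma cells, was studied by RNA-seq and m6A-seq with a vector control (shNC, genotype control) or with an shRNA against the m6A reader YTHDF2 (shY2-2, genotype YTHDF2 knockdown). Both kinds of cells were grown in the same serum-supplemented medium. From each condition came 1 input library, made from poly(A) RNA fragments and used as the RNA-seq, and 1 library of fragments bound by an m6A antibody (IP), 4 libraries in total. The knockdown rests on 1 shRNA, and there were no replicates, so the values below compare libraries, have no error between replicates and were not tested.

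In CCR4-NOT, the large scaffold protein CNOT1 holds the other subunits together. CNOT2 and CNOT3 bind the C-terminal part of CNOT1, CNOT10 and CNOT11 bind its N-terminal part, and the deadenylase pair is made of a CAF1-type enzyme (CNOT7 or CNOT8) and a CCR4-type enzyme (CNOT6 or CNOT6L). YTHDF2 is known to bind CNOT1 and thereby to bring the complex to mRNAs that carry m6A, which are then deadenylated and decayed.

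Levels are given as FPKM, fragments scaled to exon length and to the mapped fragments of the library, which can be compared between genes. The depth of the libraries is unknown, so no counting interval can be given. Differences are given as log2((FPKM shY2-2 + 1)/(FPKM shNC + 1)), in which the added 1 shrinks the differences of genes with little RNA. A gene was kept where its FPKM reached 1 in either of the input libraries, which left 12268 genes with all 10 subunits among them. YTHDF2 itself had an FPKM of 3.56 in shNC and 1.02 in shY2-2 (log2 ratio -1.18). The 6 epithelial and A549 markers examined had FPKM values between 25.9 and 2157 in shNC and between 12.9 and 2044 in shY2-2, and 3 of them had log2 ratios below -0.5, KRT19 (-0.95), ALDH1A1 (-0.80) and KRT8 (-0.70). The 9 markers of blood, endothelial and stromal cells summed to an FPKM of 1.56 in shNC and 1.83 in shY2-2, with CD3E listed at 0 in shY2-2. The one of these markers that was kept, the collagen gene COL1A1, had an FPKM of 0.834 in shNC and 1.64 in shY2-2 (log2 ratio 0.52). Their part in the values of the subunits was not tested, and fewer cells with a transcript cannot be told apart from less RNA per cell in bulk libraries.

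CNOT1 (ENSG00000125107, GRCh38, chr16:58519951-58629886, - strand), the scaffold, had an FPKM of 27.0 in shNC and 16.0 in shY2-2. It was the most abundant subunit in control cells and the second in cells with the shRNA. The level in shY2-2 was 0.591 times that in shNC (log2 ratio -0.72), and 5.55% of the genes kept had a lower ratio. The SETD6 gene on the opposite strand shares 16.1% of the exon sequence of CNOT1, and its FPKM was 2.87 in shNC and 3.58 in shY2-2.

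The m6A peaks of CNOT1 lay at different places in the lists. The shNC list held a peak over exons 32 to 35, at chr16:58539921-58542536, with a fold enrichment of IP over input of 1.48 and an FDR of 0.000537. Of its 481 bases, 373 lay in the coding sequence and the others outside the canonical transcript. A second shNC peak, at chr16:58599217-58599396, covered the start codon with a fold enrichment of 1.58 and an FDR of 0.145. The one peak of the shY2-2 list, at chr16:58532774-58533134, lay outside the exons of the canonical transcript, with a fold enrichment of 3.47 and an FDR of 0.385. No peak of CNOT1 overlapped a peak of the other list, which was also so for the shNC peaks of 11.1% of the 8915 genes kept with a peak in both lists. The peak over exons 32 to 35 held 4 GGAC, which are not printed. GGAC is the core of the m6A consensus. The start-codon peak, the shNC peak of CNOT1 with the higher fold enrichment but an FDR of 0.145, held 1 GGAC. It is shown from chr16:58599274-58599297 on the - strand, with GGAC in capitals, and lies in exon 2, with the A at base 53 of the coding sequence.
CNOT1 start-codon peak: gctacctggtGGACaatttaacca

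The deadenylase subunits are the catalytic part of the complex. CNOT6 (ENSG00000113300, chr5:180494412-180578405, + strand), a CCR4-type enzyme, had an FPKM of 7.64 in shNC and 4.65 in shY2-2. Its level in shY2-2 was 0.609 times that in shNC (log2 ratio -0.61). CNOT6L (ENSG00000138767, chr4:77713387-77819615, - strand), the paralogue of CNOT6 and the least abundant subunit in both libraries, had an FPKM of 1.49 in shNC and 1.65 in shY2-2 (log2 ratio 0.09). CNOT6 thus made up 83.7% of the summed FPKM of the CCR4-type pair in shNC and 73.8% in shY2-2. CNOT6 remained the more abundant of the pair in both libraries.

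CNOT7 (ENSG00000198791, chromosome 8, - strand), a CAF1-type deadenylase, had an FPKM of 9.36 in shNC and 6.13 in shY2-2 (log2 ratio -0.54). CNOT8 (ENSG00000155508, chr5:154857553-154876793, + strand), its paralogue, had an FPKM of 9.23 in shNC and 7.25 in shY2-2 (log2 ratio -0.31). CNOT7 made up 50.3% of the CAF1-type sum in shNC and 45.8% in shY2-2, so that CNOT8 was the more abundant paralogue in cells with the shRNA. The CAF1-type sum exceeded the CCR4-type sum in both libraries, with 18.6 against 9.13 in shNC and 13.4 against 6.30 in shY2-2. Transcripts were searched for 100-base stretches of the paralogues on the same strand only, so transcripts of the opposite strand were not covered. No such stretch of CNOT6, CNOT7 or CNOT8 occurs in a transcript of another gene in GENCODE. Reads of that strand and length could thus be told apart. For CNOT6L, 2.01% of these stretches also occur in the pseudogene CNOT6LP1.

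**Figure D1:**
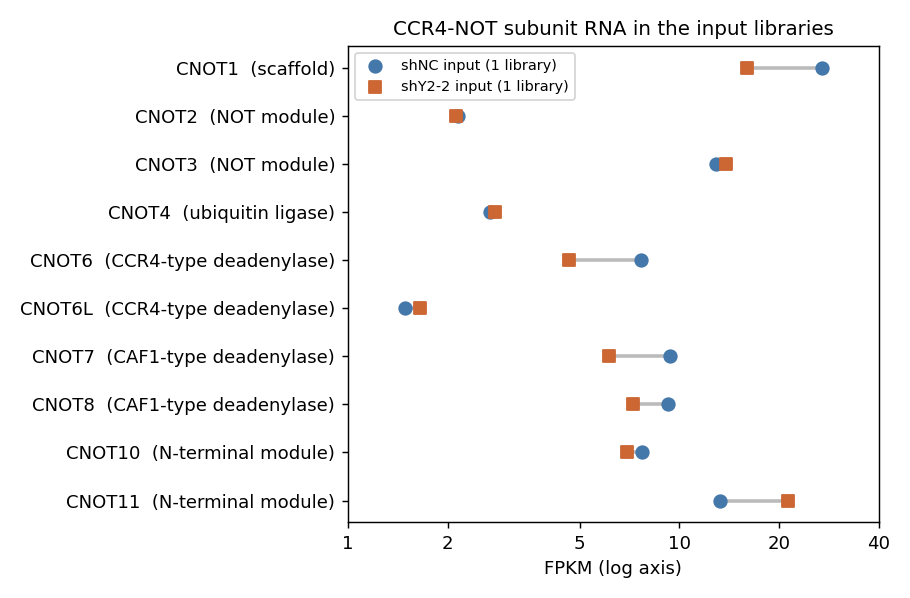
FPKM of the 10 CCR4-NOT subunits on a log axis, with 1 circle for the shNC input library and 1 square for the shY2-2 input library of each gene, joined by a grey line. CNOT1, CNOT6 and CNOT7 show the longest shifts to lower values, and CNOT11 shifts from 13.3 to 21.3.

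CNOT6 carried the most enriched peak of all the subunits. In the shNC list, a peak in the first exon (chr5:180494412-180495518), with 352 of its 450 bases in the 5′ UTR of the canonical transcript, had a fold enrichment of 46.5 and an FDR of 7.94e-21. In that list, 99.9% of the peaks had a lower fold enrichment. In the shY2-2 list, a peak began at the same base (chr5:180494412-180494741) with a fold enrichment of 4.05 and an FDR of 0.000102, and 77.2% of the peaks of that list had a lower fold enrichment. The peak was thus present in both lists, with a ratio of IP over input that was lower in shY2-2. The stretch of 330 bases common to both peaks held a single GGAC, in the 5′ UTR, with the A at chr5:180494674. It is shown here on the + strand with GGAC in capitals.
CNOT6 5′ UTR: gcagcgggcgGGACtggtatggtg

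The other peaks of CNOT6 were weaker. A pair of overlapping peaks close to the end of the 3′ UTR had fold enrichments of 2.54 in shNC and 2.89 in shY2-2, with FDRs of 0.166 and 0.155. The peaks of CNOT6L lay in its 3′ UTR of 7044 bases, the longest of the subunits. The highest fold enrichments of CNOT6L were 11.4 in shNC (chr4:77715571-77715781, FDR 0.0214) and 10.4 in shY2-2 (chr4:77715811-77716260, FDR 0.205). These peaks were neighbours that did not overlap, and neither held a GGAC.

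For CNOT7, a peak in the 3′ UTR between 1139 and 1409 bases after the stop codon was found in both lists, with a fold enrichment of 1.76 (FDR 1.45e-05) in shNC and 2.29 (FDR 1.29e-06) in shY2-2. The shNC list had another 2 peaks of CNOT7, both with an FDR above 0.05. For CNOT8, a peak close to the end of the 3′ UTR was found in both lists, with a fold enrichment of 2.66 (FDR 2.88e-05) in shNC and 2.14 (FDR 4.47e-05) in shY2-2. The stretch of CNOT8 common to both peaks (chr5:154876433-154876763) held 2 GGAC sites, 1072 and 1137 bases after the stop codon, shown on the + strand with GGAC in capitals.
CNOT8 3′ UTR, first site, chr5:154876499-154876522: aggaagctcaGGACttttttcttt
CNOT8 3′ UTR, next site, chr5:154876564-154876587: actacagtatGGACaatttcaaaa
A shNC peak over exons 2 and 3 of CNOT8, with 310 of its 421 bases in the coding sequence, had a fold enrichment of 1.85 and an FDR of 0.000407. It met no peak of the shY2-2 list.

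CNOT2 and CNOT3 form the NOT module, through which several RNA-binding proteins contact the complex. CNOT2 (ENSG00000111596, chr12:70242994-70354993, + strand) had an FPKM of 2.15 in shNC and 2.11 in shY2-2 (log2 ratio -0.02). CNOT3 (ENSG00000088038, chr19:54137728-54155681, + strand) had an FPKM of 12.9 in shNC and 13.9 in shY2-2 (log2 ratio 0.10). The ratios of this pair lay near the median of the genes kept. CNOT3 was the more abundant of the pair in both libraries, and in shY2-2 it had 6.55 times the FPKM of CNOT2. CNOT4 (ENSG00000080802, chr7:135361795-135510127, - strand), a ubiquitin ligase that joins the complex, had an FPKM of 2.68 in shNC and 2.78 in shY2-2 (log2 ratio 0.04).

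CNOT2 had a 3′ UTR peak of nearly the same extent in both lists. Its fold enrichment was 2.98 (chr12:70354334-70354933, FDR 2.19e-05) in shNC and 2.72 (chr12:70354394-70354993, FDR 1.51e-06) in shY2-2, and 90.0% of each peak lay within the other. The 540 common bases held 5 GGAC sites, the most of any pair of overlapping peaks of the subunits, at 704 to 936 bases after the stop codon. They are shown in order on the + strand, with GGAC in capitals, each named by the position of its A on chromosome 12.
CNOT2 70354619: ttaaatttttGGACatcacatgaa
CNOT2 70354750: tatgaaaatgGGACattctggaac
CNOT2 70354775: gctggtcaggGGACtttgtcgccc
CNOT2 70354823: cagcagccaaGGACatccataccc
CNOT2 70354851: gaatgtgatgGGACttaaaagaag
The shNC peak of CNOT2 with the highest fold enrichment (6.10, FDR 0.881) was another one, at chr12:70330819-70330939, outside the exons of the canonical transcript and without a GGAC. A shNC peak at chr12:70337391-70337600, with 123 of its 210 bases in the coding sequence, had a fold enrichment of 2.00 (FDR 0.0191). It met no shY2-2 peak.

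CNOT3 had peaks over its stop codon in both lists. A shNC peak at chr19:54155292-54155621 had a fold enrichment of 2.62 (FDR 0.000331), and a shY2-2 peak at chr19:54155322-54155531 had a fold enrichment of 2.97 (FDR 2.19e-07). Each list held a further peak that began at 54155339 and was assigned to CNOT3, with a fold enrichment of 3.97 in shNC and 3.12 in shY2-2. In shNC this peak ran in 2 blocks to 54156813, past the end of CNOT3 at 54155681, and its inner block edges at 54155940 and 54156763 are the exon edges of LENG1, the neighbouring gene on the opposite strand. LENG1 had an FPKM of 7.19 in shNC and 7.48 in shY2-2 and shares 13.2% of the exon sequence of CNOT3. In shY2-2 the peak that began at 54155339 was 1 block, ended at 54155546 within CNOT3 and had no LENG1 exon edge. Without the peaks that began at 54155339 the subunits had 33 peaks in shNC and 18 in shY2-2, and CNOT3 kept 2 and 1. The stretch common to the remaining pair of CNOT3 peaks held 2 GGAC sites in exon 18, whose A bases lie 16 and 10 bases before the last base of the stop codon. A further GGAC, 213 bases after it, lay in both shNC peaks and in no shY2-2 peak. The 3 sites are shown on the + strand with GGAC in capitals.
CNOT3 chr19:54155379-54155402: gctacctggaGGACcgggacctcc
CNOT3 chr19:54155385-54155408: tggaggaccgGGACctccagtgac
CNOT3 chr19:54155608-54155631: ccccagtgagGGACattttttggt

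CNOT4 had 4 peaks in shNC and 1 in shY2-2. The peak found in both lists lay in the 3′ UTR, with a fold enrichment of 7.63 (chr7:135361825-135362064, FDR 0.00537) in shNC and 2.60 (chr7:135361855-135362064, FDR 0.175) in shY2-2. A shNC peak over exon 10 had a fold enrichment of 6.87 (FDR 0.0347) and one over exons 7 to 9 had a fold enrichment of 1.71 (FDR 0.0417), and neither met a shY2-2 peak. Of the 300 bases of the peak over exon 10, 144 lay in the canonical transcript. The common stretch in the 3′ UTR held 1 GGAC, 945 bases after the stop codon. A G follows it, so it does not match the longer m6A consensus DRACH, in which the last base is A, C or T. It is shown from chr7:135361929-135361952 on the - strand with GGAC in capitals.
CNOT4 3′ UTR: tgtagtttctGGACgtttgtgcag

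CNOT10 and CNOT11 form the module at the N-terminal end of CNOT1. Of the pair, CNOT11 had the larger difference between the libraries. CNOT10 (ENSG00000182973, chr3:32685145-32773875, + strand) had an FPKM of 7.70 in shNC and 6.97 in shY2-2 (log2 ratio -0.13), and 36.8% of the genes kept had a lower ratio. CNOT11 (ENSG00000158435, chr2:101252802-101270316, + strand) had an FPKM of 13.3 in shNC and 21.3 in shY2-2 (log2 ratio 0.64), and 95.8% of the genes kept had a lower ratio. It was the second most abundant subunit in shNC and the most abundant in shY2-2. CNOT11 was 1.73 times as abundant as CNOT10 in shNC and 3.05 times in shY2-2. CNOT1 was 2.03 times as abundant as CNOT11 in shNC and 0.751 times in shY2-2, so the order of this pair turned.

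CNOT10 had a peak over its stop codon in both lists, at chr3:32773486-32773755 in shNC (fold enrichment 2.22, FDR 3.55e-05) and chr3:32773486-32773875 in shY2-2 (fold enrichment 3.68, FDR 1.26e-07). This was the pair of overlapping peaks in which the fold enrichment in shY2-2 was highest relative to that in shNC. The other 4 shNC peaks of CNOT10 had FDRs between 0.0575 and 0.256. CNOT11 was the one subunit with more peaks in shY2-2 than in shNC, 3 against 2. A shNC peak of 809 bases from the coding sequence into the 3′ UTR (chr2:101269268-101270076, fold enrichment 2.30, FDR 1.02e-06) met 2 shorter shY2-2 peaks, at chr2:101269298-101269478 (1.36, FDR 0.0479) and at chr2:101269777-101270316 (2.24, FDR 0.000257). The additional shY2-2 peak covered the start codon (chr2:101252922-101253072, fold enrichment 1.96, FDR 0.0132). None of the stop-codon peaks of CNOT10 and no stretch common to both lists in CNOT11 held a GGAC.

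The 10 ratios were set against those of all genes kept. No subunit had a log2 ratio past 1 in size, which 3.12% of the genes kept had. CNOT11 alone lay above 0.5, against 8.18% of the genes kept, and CNOT1, CNOT6 and CNOT7 lay below -0.5, against 11.6%. Of the other 6, CNOT2, CNOT3, CNOT4, CNOT6L and CNOT10 lay within 0.15 of 0, and CNOT8 lay at -0.31. The median of the 10 log2 ratios was -0.07, against 0.00 over the genes kept. From the 5th to the 95th percentile, the log2 ratios of the genes kept ran from -0.76 to 0.60, and the ratio of CNOT11 lay outside this range.

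**Figure D2:**
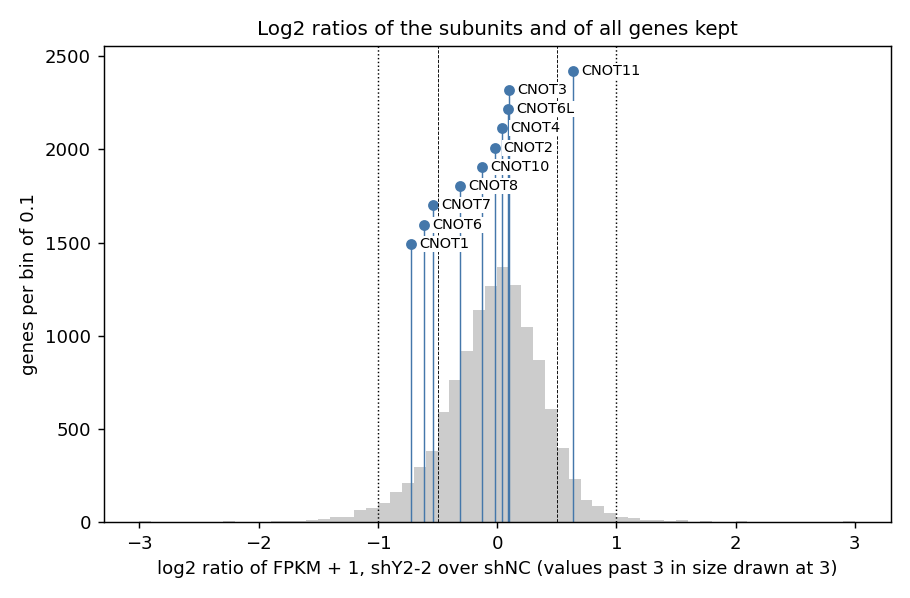
Grey bars count the genes kept per bin of 0.1 in the log2 ratio of FPKM + 1, shY2-2 over shNC, and each blue line and circle marks 1 subunit at its ratio (the heights of the circles serve the labels). Dashed lines stand at 0.5 in size and dotted lines at 1; CNOT1, CNOT6 and CNOT7 lie between -1 and -0.5, and CNOT11 lies between 0.5 and 1.

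The subunits differ in transcript length and in the share of G and C bases (GC content), and the ratios of the genes kept moved with both. The canonical transcripts of CNOT1, CNOT6, CNOT6L and CNOT7 have 6219 to 8772 bases, and those of the other 6 subunits have 2446 to 3538. Among the 500 genes nearest in length, the median log2 ratio was -0.17 for CNOT1, -0.12 for CNOT6, -0.17 for CNOT6L and -0.14 for CNOT7. The same median was 0.07 for CNOT11 and 0.06 for CNOT8. Among the 500 genes nearest in GC content, the median was -0.03 for CNOT1, -0.18 for CNOT6, -0.22 for CNOT6L and -0.23 for CNOT7. By GC content it was 0.05 for CNOT11 and -0.12 for CNOT8. The 3 subunits below -0.5 were thus among the 4 long transcripts, and CNOT6L, the longest, lay at 0.09. The parts of length and GC content in these ratios were not tested. On the opposite strand, an unnamed gene that is not in the table (ENSG00000289145) shares 29.9% of the exon sequence of CNOT7, and FAXDC2 shares 5.81% of that of CNOT8. The libraries were strand-specific, but the strand setting of the counting is not given in the sources used here.

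By FPKM, the order of the subunits in shNC ran CNOT1, CNOT11, CNOT3, CNOT7, CNOT8, CNOT10, CNOT6, CNOT4, CNOT2 and CNOT6L. In shY2-2, 5 of the 10 held another place. CNOT1 and CNOT11 exchanged the first places, CNOT7 moved from the fourth to the sixth, and CNOT8 and CNOT10 each moved up by 1. The most abundant subunit had 18.1 times the FPKM of the least abundant in shNC and 12.9 times in shY2-2. The summed FPKM of the 10 was 93.4 in shNC and 82.6 in shY2-2. With no replicates, no spread is known against which neighbours in this order could be told apart.

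Each of the 10 subunits had a peak in both lists by the rule that chose them, so nothing is read from this count. Of the genes kept, 72.7% had a peak in both lists, 81.2% had a shNC peak and 78.4% had a shY2-2 peak. Fewer peaks in shY2-2 than in shNC were found for 9 of the 10 subunits, against 40.9% of the genes kept with a peak in both lists. These genes include ones with 1 shNC peak, which cannot have fewer in shY2-2, while the subunits had 2 to 5 shNC peaks each. The shares are thus not alike, and the count is not read as particular to the subunits. Numbers of peaks depend on the depth of each library, which is unknown.

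**Figure D3:**
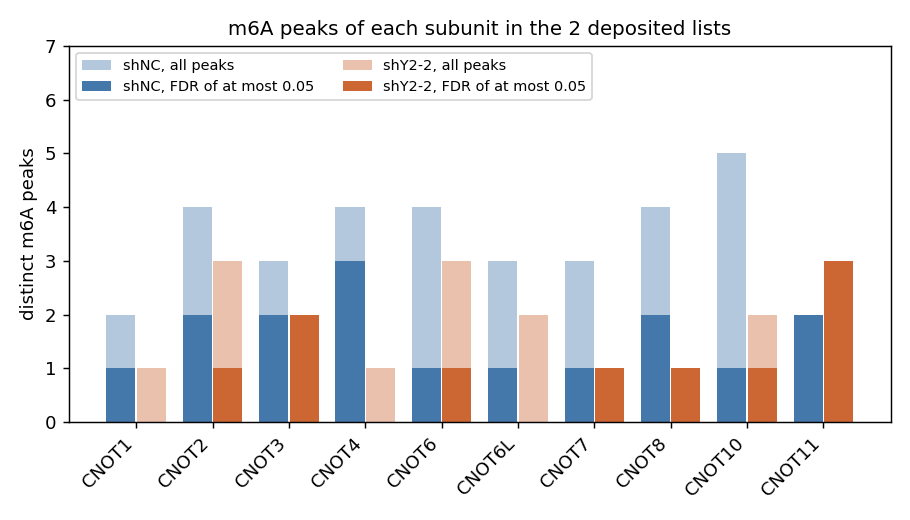
Bars count the distinct m6A peaks of each subunit in the shNC list (blue) and in the shY2-2 list (orange), with the darker part for peaks with an FDR of at most 0.05. CNOT11 is the one subunit with more peaks in shY2-2, and CNOT1, CNOT4 and CNOT6L have no shY2-2 peak with an FDR of at most 0.05.

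For the subunits, the difference between the lists was smaller among peaks with a low FDR. In shNC, 16 of the 34 peaks (47.1%) had an FDR of at most 0.05, against 56.4% of all peaks of that list. In shY2-2, 10 of the 19 peaks (52.6%) did, against 52.1% of all. All 10 subunits had such a peak in shNC and 7 had one in shY2-2, with CNOT1, CNOT4 and CNOT6L without. At an FDR of at most 0.001 the counts were 10 and 8 peaks. These 2 counts, and the 10 and 7 subunits, have no share over all peaks or genes beside them, so they are not read as particular to the subunits.

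Of the 34 shNC peaks, 13 (38.2%) overlapped a shY2-2 peak by at least 1 base, against 55.9% of all shNC peaks. Of the 19 shY2-2 peaks, 13 (68.4%) overlapped a shNC peak, against 65.4% of all. Of the overlapping peaks, 11 of the 13 in each list held bases of the 3′ UTR. Of the 21 shNC peaks that met no shY2-2 peak, 13 held bases of the coding sequence and none of the 3′ UTR, and 7 had an FDR of at most 0.05. Of the 6 shY2-2 peaks that met no shNC peak, 1 had an FDR of at most 0.05, the start-codon peak of CNOT11. By the labels of the lists, 59.1% of all shNC peaks and 59.5% of all shY2-2 peaks lay in a 3′ UTR. The locations and FDRs of overlapping and lone peaks were not counted over all genes, so they are not read as particular to the subunits.

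**Figure D4:**
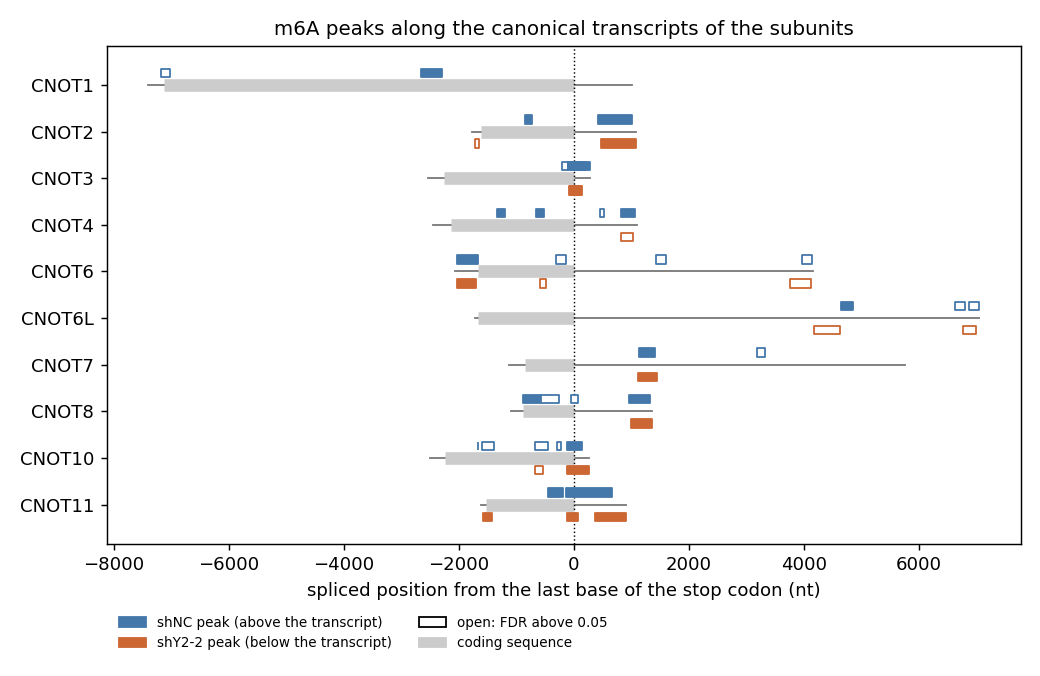
Each row is the canonical transcript of a subunit on the scale of spliced bases from the last base of the stop codon, with the coding sequence in grey, shNC peaks above it in blue and shY2-2 peaks below it in orange, drawn from their first to their last transcript base and open where the FDR is above 0.05. Peaks at or after the stop codon overlap between the lists for every subunit but CNOT1, while the coding sequences of CNOT1, CNOT2, CNOT4 and CNOT8 hold shNC peaks alone. The 5 peaks outside the canonical transcripts are not drawn.

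The overlapping peaks formed 16 pairs in 9 subunits, since a peak can meet more than 1 peak of the other list. Fold enrichment was higher in shNC in 10 pairs and higher in shY2-2 in 6. The pairs of CNOT3 overlap each other at its stop codon, and some include the peaks that begin at 54155339, of which the shNC one has LENG1 exon edges. The split was not counted over all overlapping peaks, so it is not read as particular to the subunits. The widest gap was that of the 5′ UTR peak of CNOT6, 46.5 against 4.05, followed by the 3′ UTR peak of CNOT4, 7.63 against 2.60. Both peaks had an FDR of at most 0.05 in 11 of the 16 pairs, which came from 7 subunits. Fold enrichment is the ratio of IP to input within a condition, so a difference in input RNA enters it.

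**Figure D5:**
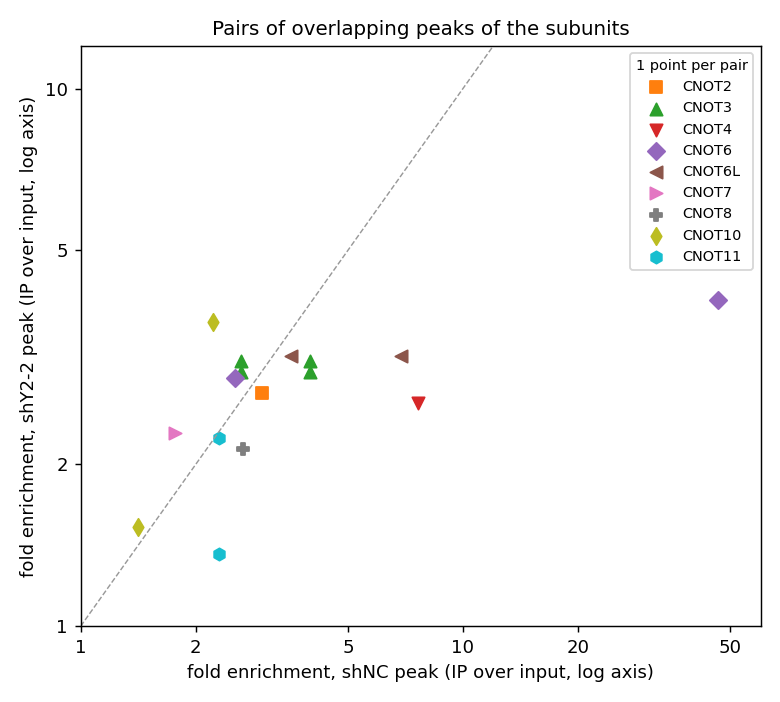
Each point is a pair of overlapping peaks of a subunit, placed by the fold enrichment of its shNC peak (horizontal, log axis) and of its shY2-2 peak (vertical, log axis), with a dashed line where both are equal. The 5′ UTR peak of CNOT6 lies far to the right at 46.5 and 4.05, and the stop-codon peak of CNOT10 lies above the line at 2.22 and 3.68.

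GGAC was looked for on the strand of the gene. It occurred in 18 of the 34 shNC peaks (52.9%), against 61.0% of all shNC peaks, and in 12 of the 19 shY2-2 peaks (63.2%), against 60.6% of all. Where GGAC was absent, only these letters were absent. The labels in the peak lists and the canonical transcripts differed in places. Of the 24 shNC peaks labelled as 3′ UTR, 8 held no base of the 3′ UTR of the canonical transcript, and 6 of these 8 held bases of its coding sequence, among them the peak over exons 32 to 35 of CNOT1.

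The levels of the factors around CCR4-NOT were compared as lists. CNOT9, a subunit not counted among the 10, had an FPKM of 8.90 in shNC and 9.51 in shY2-2 (log2 ratio 0.09), and TNKS1BP1, a protein that associates with the complex, had 10.3 and 9.27 (log2 ratio -0.14). Of the 12 kept genes for adaptors that bring CCR4-NOT to mRNAs, BTG1, which binds the CAF1-type deadenylases, lay above 0.5 (FPKM 11.9 and 17.5, log2 ratio 0.52) and TNRC6A, which links microRNA complexes to CCR4-NOT, lay below -0.5 (FPKM 9.65 and 5.50, log2 ratio -0.71). Their median was -0.26. None of the 8 other deadenylases kept, PARN and PAN2 with PAN3 among them, lay past 0.5 in size (median 0.11). Of the 4 poly(A)-binding proteins kept, PABPC1L lay below -0.5 (FPKM 3.46 and 1.97, log2 ratio -0.59), and the median was 0.13.

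The factors that act after deadenylation gave a mixed picture. Of the 19 genes of decapping and 5′ to 3′ decay, LSM14B (FPKM 8.42 and 13.9, log2 ratio 0.66) and EDC3, an enhancer of decapping (4.53 and 6.87, 0.51), lay above 0.5. In that list the exonuclease XRN1 (1.84 and 0.765, -0.69) and the decapping cofactor DCP1B (4.08 and 2.29, -0.63) lay below -0.5, and the median was -0.05. Of the 15 genes of the RNA exosome and the Ski complex, the exosome subunits EXOSC3 (6.79 and 12.5, 0.79), EXOSC5 (26.6 and 39.4, 0.55) and EXOSC6 (3.91 and 6.78, 0.66) lay above 0.5. The Ski subunit TTC37 (10.8 and 6.95, -0.57) lay below -0.5, and the median was 0.02. Of the 12 genes of the endonuclease route that YTHDF2 also uses, with RIDA and the subunits of RNase P/MRP, POP7 (43.8 and 72.8, 0.72) lay above 0.5 and none below -0.5 (median 0.12).

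Over these 7 lists, 7 of the 72 genes kept lay above 0.5 and 5 below -0.5, and none lay past 1 in size. The same shares over the genes kept were 8.18%, 11.6% and 3.12%. Of the other YTHDF readers, YTHDF1 had an FPKM of 27.7 in shNC and 25.4 in shY2-2 (log2 ratio -0.12), and YTHDF3 had 2.72 and 3.80 (log2 ratio 0.36).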

How the data were processed

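The data were 4 libraries of A549 cells, an input and an m6A IP library of shNC and of shY2-2, grouped by their labels. Reads were aligned to GRCh38 by the authors with HISAT2, and StringTie gave the deposited FPKM of each gene in the input libraries. The authors called peaks with exomePeak on IP against input of each condition and annotated them with ChIPseeker. For each peak the deposited lists hold a p-value (at most 0.049), log10 scores of p and FDR, and a fold enrichment, which is a linear ratio of IP over input. FPKM keeps no counts, so depth and counting precision are unknown. Tool versions and the limit for calling peaks are not given in the sources used here.

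Log2 ratios used a pseudocount of 1. Genes whose FPKM reached 1 in either of the input libraries were kept. No column was without a sample, and 0 columns were left unused for that reason. Repeated rows of a peak were merged, and peaks were compared by overlap of exonic blocks on the same strand. Locations and sequences came from the canonical transcripts of GENCODE release 44 and the genome of the same build, GRCh38. The subunits and the lists of other genes were chosen with earlier results of these data known. All 10 subunits are named, and of the other lists every gene kept with a ratio past 0.5 in size, with CNOT9, TNKS1BP1, YTHDF1, YTHDF2 and YTHDF3. GGAC sites were taken from the shNC peak with the highest fold enrichment of each subunit except CNOT7. Those in stretches common to peaks of both lists were added after the values were seen, and 1 of these in CNOT10 and 1 past the end of CNOT3 are not printed. Alternatives were other pseudocounts, filters, centring, peak limits and overlap rules. Python 3.11.15, NumPy 2.4.6, pandas 2.3.3, pysam 0.24.0 and matplotlib 3.10.9 were used.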

Additional observations from a re-analysis of the deposited data

How the results depend on the processing

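Of 114 values recomputed under other settings, 103 stayed the same and 11 moved. A log2 ratio or median stayed the same where it changed by less than 0.1, and a count where it lay within 1.5 times. The order of the subunits stayed the same only where no place differed. The 37 recomputed log2 ratios of single subunits were among the 103, with a pseudocount of 0.1, centring on the median, no filter on FPKM and, for the 7 subunits that remained, a minimum FPKM of 5. A filter on FPKM cannot change the ratio of a single gene, so those ratios were the same by construction. Centring moved every ratio by the same 0.0097, less than the limit of 0.1. For single subunits, only the pseudocount was thus a check that could come out otherwise. With the minimum FPKM of 5 the median log2 ratio of the subunits was -0.31 and that of the other deadenylases 0.23, since fewer genes entered. In the order by FPKM, 5 of the 10 places differed when the shY2-2 library was used. With an FDR of at most 0.05 the subunits had 16 peaks in shNC and 10 in shY2-2, and 8 shNC peaks met a peak of the other list. With an FDR of at most 0.001 there were 10 peaks in shNC and 8 in shY2-2, and 8 peaks of each list met one of the other. At this limit all peaks were not counted. With a fold enrichment of at least 2 there were 20 peaks in shNC. The 7 values without the CNOT3 peaks that begin at 54155339, an alternative added after the data were seen, moved by less than 1.5 times. An overlap of at least 50% of the shorter peak moved no count of overlapping peaks by that much. No paired analysis was possible because each condition has 1 library of each kind. Without replicates no difference between the conditions can be set against a spread. The depth is unknown, so it was not possible to say how precise the low FPKM values or the peaks with a high FDR are.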
